A study of Arabidopsis thaliana with 12 samples.

Results

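The Arabidopsis genes named MYB followed by a number encode MYB transcription factors, most of them of the plant R2R3 class. Members were taken as the TAIR10 protein-coding genes whose annotated symbol is MYB or ATMYB plus a number, in any case. This gave 116 genes of 27444 protein-coding genes and of 37899 annotated genes on chromosomes 1 to 5. A further 9 genes carry a MYB number only among their synonyms and were left out.

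Trimethylated lysine 27 of histone H3 (H3K27me3) was profiled by chromatin immunoprecipitation and sequencing (ChIP-seq) in 14-day-old seedlings of 4 genotypes: wild-type Col, the brm-1 mutant, the clf-29 mutant and the brm-1 clf-29 double mutant. Both mutants carry T-DNA insertions and share the Col background, each gene was represented by 1 allele, and each chromatin sample pooled whole seedlings, so no cell type can be read from the values. Each genotype had 2 biological replicates of the ChIP and 1 sequenced input without a replicate. Levels are given as reads over the gene per 1000000 kept reads (RPM), where 1 read was kept per position and strand, or as RPM per kb of counted length.

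MYB proteins bind DNA through imperfect helix-turn-helix repeats, and the R2R3 class carries a pair of them. The family controls epidermal cell fate, the flavonoid, glucosinolate and phenylpropanoid pathways, secondary walls, waxes and suberin, anther and embryo-sac development and responses to stress, and most members act in few tissues. H3K27me3 is laid down by the Polycomb repressive complex 2 and is associated with genes that are kept silent. CURLY LEAF (CLF) is a methyltransferase of that complex in the plant body and has a close relative, SWINGER, that the clf-29 plants still carry. BRAHMA (BRM) is the ATPase of a SWI/SNF complex that remodels nucleosomes.

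The ChIP libraries held 2112103 to 3654258 kept reads, and the 3 lowest totals were in the clf-29 and double mutant groups. The MYB genes together took 0.569% of the kept reads in Col, 0.670% in brm-1, 0.851% in clf-29 and 0.790% in the double mutant. AG, AP3, FLC and FT, known carriers of the mark in seedlings, lay in enriched regions in all 4 genotypes, and the housekeeping genes ACT7 and TUB2 in none. The share of reads inside each genotype's own enriched regions was 59.2% to 59.3% in Col and 74.1% to 78.5% in the mutants. RPM is a share of a library, so a larger share inside regions leaves a smaller one for the genes outside them, and changes are therefore set beside the median of all marked genes. A lower level in every cell and fewer cells that carry the mark cannot be told apart.

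MYB genes carried H3K27me3 far more often than other protein-coding genes did. A gene was called marked when it overlapped, by at least 1 bp, a region that was enriched over input in both replicates. In Col, 82 of the 116 genes (70.7%) were marked, against 25.4% of protein-coding genes. The numbers were 82 in brm-1, 76 in clf-29 and 78 in the double mutant, against backgrounds of 26.8%, 24.6% and 25.8%. A total of 86 genes were marked in at least 1 genotype (background 29.9%) and 73 in all 4 (background 21.3%). These shares describe the family, and no test was made of them.

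The regions over MYB genes were longer than over other marked genes. In Col, the median region over a marked member was 4600 bp against 3800 bp over all marked protein-coding genes, 50 of the 82 members (61.0%) were covered end to end against 48.0% of marked protein-coding genes, and 50 of the 82 regions held no second protein-coding gene. Levels among marked members were also higher, with a Col median of 37.7 RPM per kb against 26.3 RPM per kb for marked protein-coding genes. Neighbouring members shared 1 Col region at 3 places: MYB29 and MYB76 lie 1442 bp apart on chromosome 5, MYB24 and MYB115 lie 3657 bp apart on the same chromosome, and MYB104 and MYB81 lie 3928 bp apart on chromosome 2. The values within each pair are not independent. The anthocyanin activators MYB113, MYB114 and MYB90 lie in a row on chromosome 1, each under a Col region of its own.

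**Figure D1:**
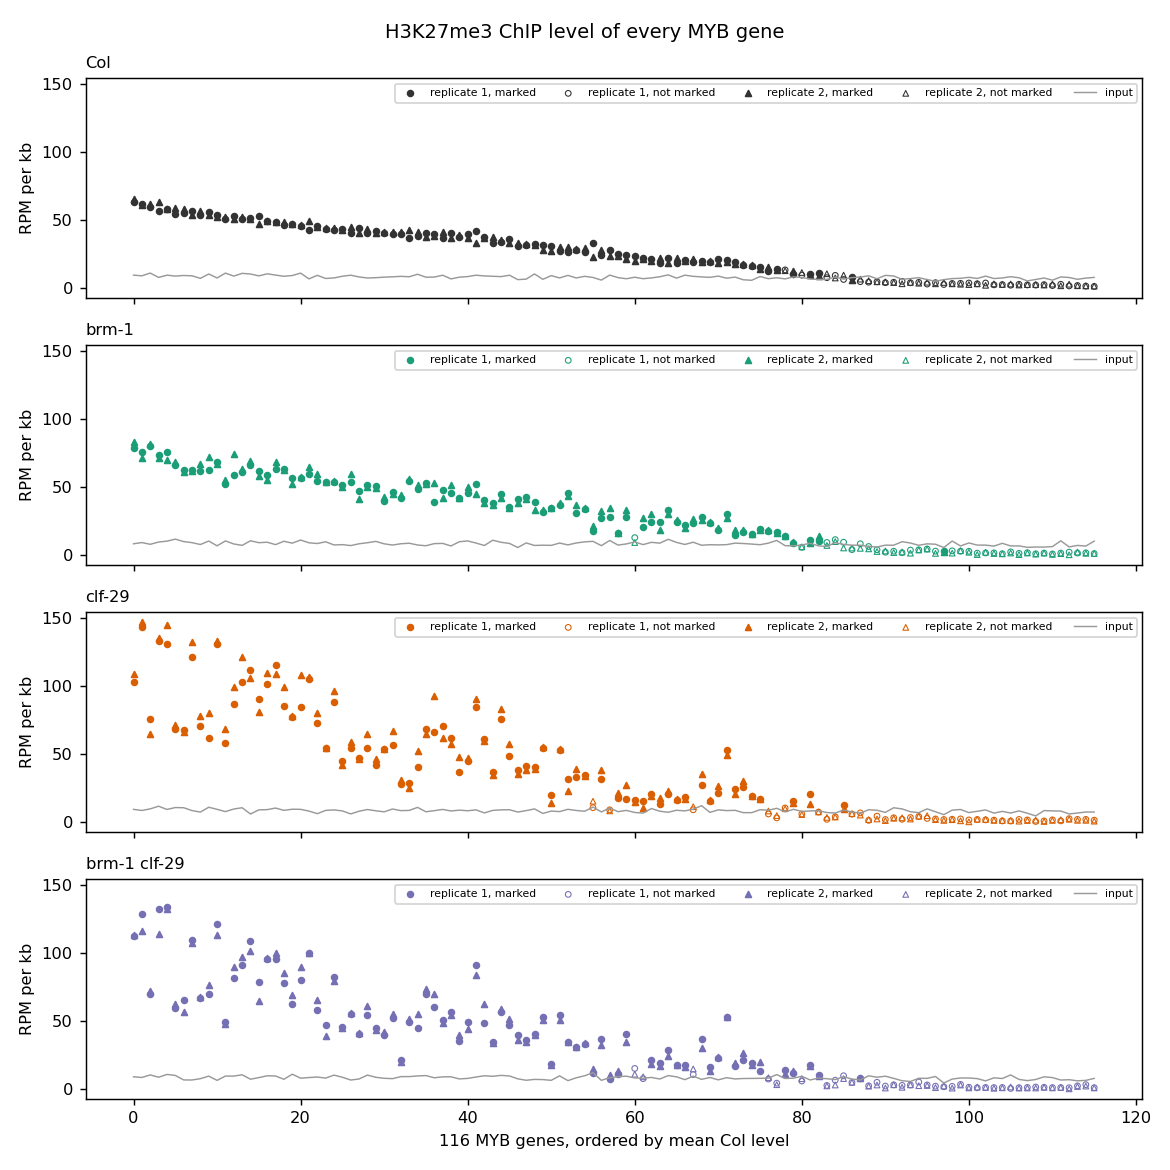
ChIP level of each of the 116 MYB genes in RPM per kb (vertical axis), in order of the mean Col level (horizontal axis), with 1 panel per genotype, circles and triangles for replicates 1 and 2, filled where the gene was marked, and a grey line for the input of that genotype. The order set in Col runs down smoothly from 64.3 to 1.11 RPM per kb, remains close in brm-1, and scatters in clf-29 and in the double mutant, where the highest genes reach 145 and 134 RPM per kb.

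The 5 highest levels in Col belonged to genes of meristems, reproduction and walls. MYB117, which separates organs at boundaries as LATERAL ORGAN FUSION1, had 64.3 ± 1.80 RPM per kb (SD, n = 2). Its relative MYB105 (LATERAL ORGAN FUSION2) had 61.2 ± 0.444 RPM per kb, and MYB37 (REGULATOR OF AXILLARY MERISTEMS1) had 60.7 ± 1.43 RPM per kb. MYB119, which acts in the female gametophyte, had 60.1 ± 4.53 RPM per kb, and MYB26, needed for the wall thickening that opens anthers, had 58.2 ± 0.0227 RPM per kb. These 5 levels were within a few units of each other, comparable to the spread of MYB119, and their order is not resolved.

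At the other end, 30 members were marked in no genotype, and 27 of them had less ChIP than input signal in Col. Their Col levels ran from 1.11 to 10.3 RPM per kb. They included MYB13 (0.145 times the input), the GAMYB-like anther gene MYB33 (0.313 times), the lignin regulator MYB58 (0.287 times) and the phenylpropanoid repressor MYB3 (0.381 times). Too few reads left MYB13, MYB55, MYB6, MYB73 and MYB82 out of the tests, and the other 111 members were tested, including all 86 marked members.

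Grouped by known role, the marked shares in Col lay on both sides of the 70.7% of the whole family. The groups are small, and differences between them were not tested. All 6 glucosinolate regulators, all 7 genes of the female gametophyte and embryo and all 7 genes of meristems and boundaries were marked in Col. So were 7 of 10 flavonoid and anthocyanin genes, 11 of 17 secondary wall genes, 14 of 17 suberin, cutin and wax genes and 12 of 19 stress and hormone genes. The remaining groups had 8 of 13 anther and pollen genes, 4 of 6 genes of epidermal cell fate and 1 of 2 iron genes, where MYB72 was marked and MYB10 was not. Ratios of ChIP to input in Col peaked at 7.89 for MYB119, 7.88 for the secondary wall gene MYB52 and 7.33 for the suberin gene MYB41. Within the meristem group even the lowest gene, MYB68, had a ratio of 4.14, whereas the lowest glucosinolate gene, MYB34, an activator of the indolic branch, had 1.76, and the lowest embryo-sac gene, MYB98, a regulator of the synergid cells, had 1.41. In the suberin and wax group MYB106 (NOECK), a regulator of petal and leaf epidermis, had 0.44, and in the epidermal group MYB82 had 0.264. The highest of the other groups were MYB122 for glucosinolates (4.74), MYB114 for anthocyanins (5.88), MYB24 for anthers (5.37), MYB5 for the epidermis (6.25) and MYB49 for stress responses (6.37).

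Most of the family kept its marked state in the mutants. MYB66, MYB14 and MYB121 were marked in Col and brm-1 only. MYB115, MYB2 and MYB89 were missed only in clf-29, MYB30 only in the double mutant, and MYB53 was marked in Col and clf-29. Newly marked members were few and weak: MYB7 only in brm-1, MYB63 only in clf-29 and MYB120 only in the double mutant, at 2.33, 11.1 and 8.07 RPM per kb. At MYB7 the level did not rise, with 3.16 RPM per kb in Col, and the brm-1 region covered 9.42% of the gene. MYB80 was marked in brm-1 and in the double mutant, and MYB95 in Col alone, where the region covered 8.82% of the gene and ChIP was 0.931 times the input. A gene was placed in a class by an overlap of at least 1 bp with regions called from these same libraries, so the classes are a description.

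Loss of BRM moved no marked MYB gene past 2-fold. Changes are log2 differences of (RPM + 1) from 1 limma fit over all 8 ChIP libraries, and a call needed a change past 2-fold and a p below 0.05 after Benjamini-Hochberg adjustment over 32062 genes. Of the 86 marked members, limma called 0 above and 0 below Col in brm-1 plants, and limma-voom also gave 0 and 0. Among all marked genes 0.929% were called higher and 1.15% lower. At an unadjusted p under 0.05, 42 members were higher and 3 lower. By adjusted p alone, 40 of 86 were higher (46.5%, against 29.4% of all marked genes), with changes of at most 0.64, and 2 were lower (2.33%, against 3.02%). The median change was 0.27 against 0.24 for all marked genes. A share that passes a p alone also depends on the reads per gene. Marked members had higher brm-1 levels than marked protein-coding genes, with medians of 43.1 and 30.4 RPM per kb. The part of level in these shares was not tested. Scaling by median-of-ratios factors or to the genes outside regions raised the scale of brm-1 against Col by 0.91 and 1.14 (log2), and 64 and 77 members were then called higher. Trimmed means over genes marked in Col and over genes marked in all genotypes moved that scale the other way, by -0.20 and -0.25. Each of these shifts was close in size to the median change of 0.27. How many of the 40 members would pass the adjusted p alone under them was not counted.

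The 2 members below Col by adjusted p were MYB53 and MYB31. MYB53, a suberin regulator (AT5G65230, chr5:26068112-26069652, plus strand), had 35.6 and 30.8 RPM in Col, 19.5 and 13.9 in brm-1, 25.0 and 22.3 in clf-29 and 23.1 and 16.6 in the double mutant, beside 12.0, 14.6, 10.6 and 12.4 RPM in the inputs. Both Col libraries lay above every mutant library, and brm-1 reached the input level. The change in brm-1 was -0.97 ± 0.22 (SE; limma adjusted p = 0.00224), just short of 2-fold. It passed 2-fold without Col replicate 2, without brm-1 replicate 1 and under both trimmed-mean scalings, and its sign turned (0.12) when libraries were scaled to the genes outside regions. MYB31, of the same subgroup of the family as the wax regulators MYB94 and MYB96, had Col levels of 47.3 and 44.4 RPM and brm-1 levels of 30.3 and 29.7 RPM, without overlap, and changed by -0.60 ± 0.17 (limma adjusted p = 0.00937). Among the unmarked members, MYB33, MYB1, MYB88 and MYB70 were called lower, 4 of 25, against 56.2% of all unmarked genes.

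**Figure D2:**
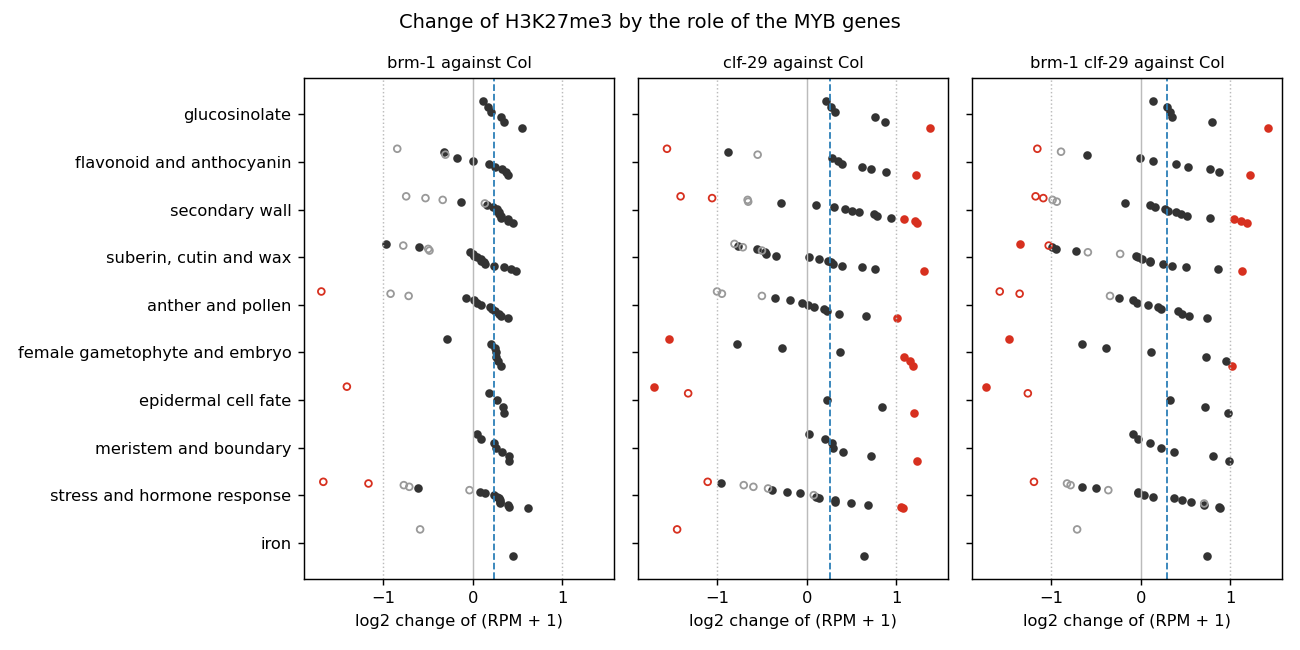
Change of each tested MYB gene against Col, as the log2 difference of (RPM + 1) on the horizontal axis, by role list, for brm-1, clf-29 and the double mutant. Filled points are marked genes, open points unmarked genes, red points called genes, dotted lines 2-fold and the blue dashed line the median of all marked genes (0.24, 0.26 and 0.30). In brm-1 the filled points crowd around the blue line, and in the other panels they spread to both sides of it.

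On the RPM scale, loss of CLF raised more marked MYB genes than it lowered. In clf-29, 16 of the 86 marked members were called higher than Col and 3 lower, where 14.2% and 10.4% of all marked genes were called. The median change was 0.32 against 0.26 for all marked genes, and 64 of 86 lay above 0. The share called higher (18.6%) was near the background and the share called lower (3.49%) was below it. The 16 higher calls depended on the scaling of the libraries: 2 were left with a trimmed mean over genes marked in Col, 0 with a trimmed mean over genes marked in all genotypes, and 52 with median-of-ratios factors, which moved the scale of clf-29 against Col by -0.30, -0.49 and 0.78 (log2). The 3 lower calls became 8, 9 and 0 under the same scalings.

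The largest fall was at MYB66, or WEREWOLF, which specifies the hairless cells of the root epidermis (AT5G14750, chr5:4763372-4764834, minus strand). It had 19.7 and 19.5 RPM in Col, 24.5 and 23.3 in brm-1, 4.24 and 6.63 in clf-29 and 6.09 and 4.47 in the double mutant. The inputs held 10.8, 15.4, 14.5 and 15.4 RPM. All 4 libraries with clf-29 lay below their inputs and below every Col and brm-1 library, so the gene looked like an unmarked gene there. The change was -1.71 ± 0.28 in clf-29 (SE; limma adjusted p = 3.27e-05), -1.73 ± 0.28 in the double mutant against Col (limma adjusted p = 2.83e-05) and -2.0 ± 0.28 in the double mutant against brm-1 (limma adjusted p = 8.24e-06). In brm-1 it was 0.27 ± 0.28 (limma adjusted p = 0.413). It was a modest target in Col, at 13.4 RPM per kb, in a region of 1200 bp that held no other protein-coding gene.

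MYB115 lost the mark beside a neighbour that kept it. MYB115, whose expression can induce embryo development from vegetative cells, and MYB24, a regulator of stamen maturation, shared 1 Col region, chr5:16136401-16146600. In clf-29 this region ended at position 16143800, short of MYB115 (AT5G40360, chr5:16144792-16146671, plus strand), while in the double mutant it ended at 16145800, inside the gene. MYB115 had 52.0 and 44.0 RPM in Col, 52.3 and 65.0 in brm-1, 16.6 and 15.2 in clf-29 and 13.8 and 19.8 in the double mutant, against inputs of 15.4 to 19.8 RPM. The libraries with clf-29 were near the input level and did not overlap the others. The change was -1.54 ± 0.20 in clf-29 (limma adjusted p = 9.41e-07) and -1.76 ± 0.20 in the double mutant against brm-1 (limma adjusted p = 4.72e-07). MYB24 had 144 and 138 RPM in Col and 159 and 207 RPM in clf-29, a change of 0.36 ± 0.10 (limma adjusted p = 0.00745). Under median-of-ratios scaling and scaling to outside genes, the MYB66 and MYB115 falls against Col shrank to less than 2-fold, with the sign kept in all 22 alternatives, while their falls against brm-1 remained called in all 22.

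The other called fall was MYB89, a repressor of seed oil accumulation, with 32.8 and 22.5 RPM in Col and 10.4 and 15.2 RPM in clf-29 (change -1.06 ± 0.25, limma adjusted p = 0.00154). Its Col replicates stood far apart, and the call was lost in 7 of 22 alternatives, among them leaving out Col replicate 1 or clf-29 replicate 1. Just outside the 2-fold limit, MYB121 changed by -0.97 and MYB14 by -0.96 (limma adjusted p = 0.000656 and 0.000467). MYB14 had 32.3 and 35.4 RPM in Col and 15.0 and 18.9 RPM in clf-29, where its input had 15.9 RPM. Among the unmarked members, 9 of 25 were called lower (36.0%), against 44.5% of all unmarked genes.

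**Figure D3:**
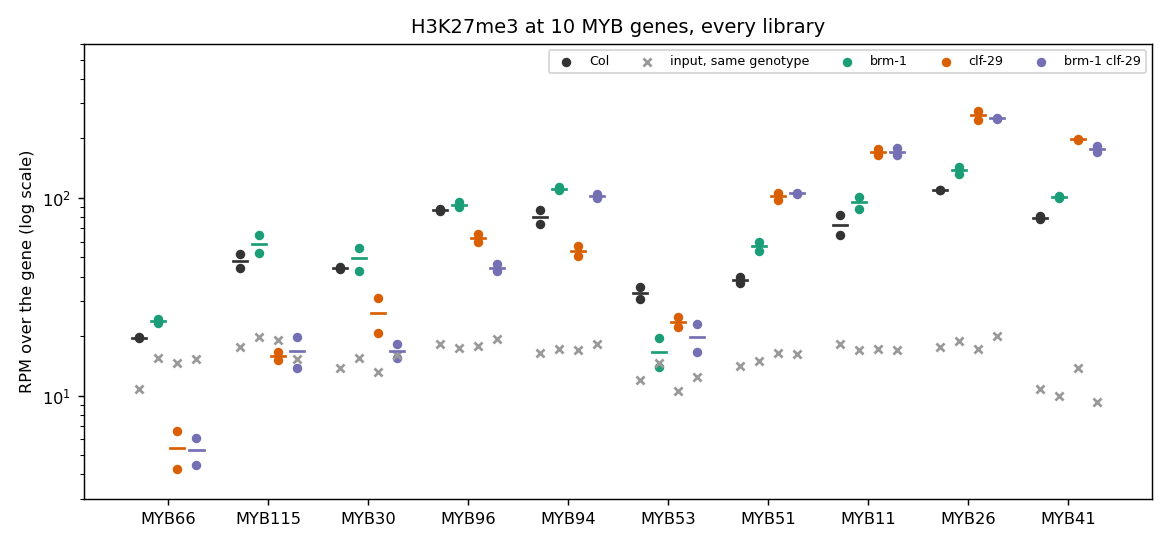
RPM over the gene (log axis) at 10 MYB genes in every library, with points for the replicates, a bar for their mean, colours for the genotypes and grey crosses for the inputs. MYB66, MYB115 and MYB30 fall to about the input crosses or below them in the double mutant, MYB94 is lowest in clf-29, and MYB51, MYB11, MYB26 and MYB41 stand highest in clf-29 and the double mutant.

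The 3 largest rises in clf-29 were at MYB51, MYB41 and MYB26. MYB51, which activates indolic glucosinolate synthesis (AT1G18570, chr1:6389399-6391386, plus strand), had 40.0 and 37.1 RPM in Col, 60.1 and 54.1 in brm-1, 106 and 98.0 in clf-29 and 106 and 105 in the double mutant. Its inputs held 14.0 to 16.4 RPM. The genotypes did not overlap except that clf-29 and the double mutant shared their range, and brm-1 stood between Col and both. The change was 1.38 ± 0.12 in clf-29 (limma adjusted p = 3.95e-09) and 0.55 ± 0.12 in brm-1 (limma adjusted p = 0.00204). The clf-29 call stood in 21 of 22 alternatives and was lost under the trimmed mean over genes marked in all genotypes, where the change was still 0.90.

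MYB41 (AT4G28110, chr4:13968029-13969525, minus strand), which drives suberin synthesis, had 80.7 and 77.8 RPM in Col, 102 and 100.3 in brm-1, 196 and 199 in clf-29 and 182 and 169.6 in the double mutant. MYB26 (AT3G13890, chr3:4576193-4578082, minus strand) had 110.0 and 110.0, 143 and 132, 248 and 275 and 254 and 251 RPM in the same order. At both genes the libraries with clf-29 lay above all Col and brm-1 libraries. The clf-29 changes were 1.31 ± 0.09 and 1.24 ± 0.08 (limma adjusted p = 1.62e-10 and 9.28e-11), and under the trimmed mean over genes marked in all genotypes they were 0.82 and 0.75.

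The higher calls in clf-29 fell on several roles. Over the family 18.6% of marked members were called higher, and over all marked genes 14.2%. The lists are small and were not compared by a test, and the calls depended on the scaling as given above. Secondary wall genes gave 3 of 12 marked members, namely MYB26, the master switch MYB46 (1.21) and MYB69 (1.08). The female gametophyte and embryo gave 3 of 7, namely MYB119 (1.15), MYB64 (1.19) and MYB118 (1.09), in the same list as the falling MYB115. Stress genes gave MYB102 (1.08) and MYB47 (1.05). Single calls came from the flavonol regulator MYB11 (1.23), the stamen regulator MYB21 (1.01), MYB5 of trichomes and the seed coat (1.20) and MYB105 of organ boundaries (1.24), beside MYB51 and MYB41 in their groups. MYB56 (1.21) and MYB40 (1.12) belong to no list. MYB117 and MYB37, at the top of the Col order, were not called, at 0.72 and 0.20. Of the best-known trichome genes, MYB0 (GLABRA1) changed by 0.22 and MYB23 by 0.84 (limma adjusted p = 0.142 and 9.76e-07).

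On the RPM scale, the clf-29 change went with how strongly a gene was marked. Levels were taken from brm-1, whose libraries do not enter the contrast of clf-29 with Col. Across the 86 marked members, Spearman's rho between the brm-1 level in RPM per kb and the clf-29 change was 0.59, and Pearson's r with the log2 level was 0.51. Over all 10337 marked genes tested, rho was 0.38. Genes are not independent replicates, and the points share the scaling of their libraries. The median level of unmarked genes was 2.99 and 3.07 RPM per kb in the Col libraries and 1.45 and 1.29 RPM per kb in clf-29. The part of this background in the gradient was not tested. In the 28 genes with the highest brm-1 levels (52.5 to 80.8 RPM per kb) the median change was 0.81, with 12 called higher and 0 lower. In the 29 genes with the lowest (2.33 to 30.1 RPM per kb) it was -0.19, with 1 called higher, MYB51, and 2 lower, MYB66 and MYB89. Marked genes of all kinds at the same levels had medians of 0.82 and 0.02, with 35.1% called higher and 2.53% lower at the high levels and 6.02% and 13.9% at the low ones, so the gradient was shared with other targets. The brm-1 change of the members also rose, from a median of 0.10 at the low levels to 0.31 at the high ones. There the brm-1 libraries entered both the level and the change.

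**Figure D4:**
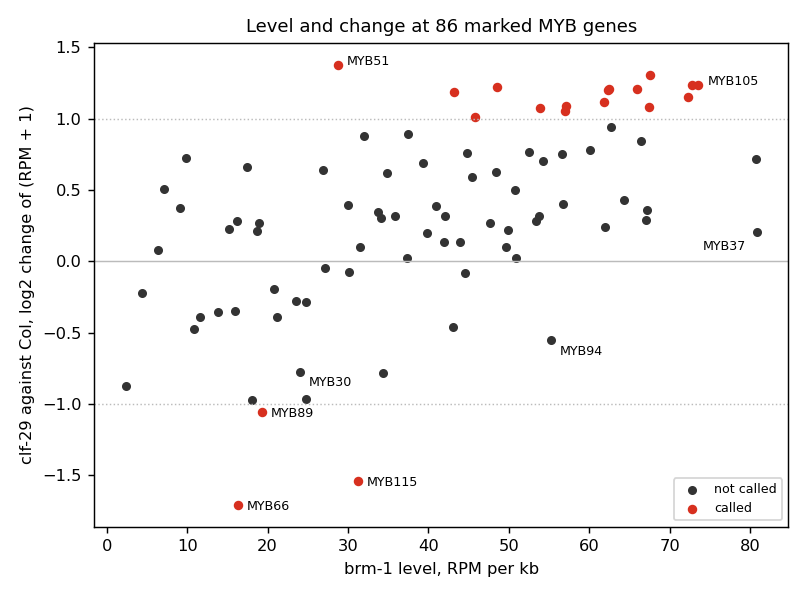
Level in brm-1 (RPM per kb, horizontal axis) and change in clf-29 against Col (log2 difference of (RPM + 1), vertical axis) of the 86 marked MYB genes, with red points for called genes and dotted lines at 2-fold. Called rises lie at or above 43.1 RPM per kb apart from MYB51, and the called falls MYB66, MYB89 and MYB115 lie at or below 31.2 RPM per kb in brm-1.

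Along the gene, the higher signal in clf-29 on the RPM scale lay in the body. Over the 82 members marked in Col, the mean level over positions 0 to 1000 from the gene start was 36.4 ± 0.12 RPM per kb in Col (SD, n = 2), 44.5 ± 1.04 in brm-1, 56.2 ± 3.11 in clf-29 and 52.4 ± 0.398 in the double mutant. From 1000 to 2000 bp upstream, the levels were 19.4 ± 0.0722, 23.9 ± 2.02, 17.3 ± 2.32 and 18.03 ± 2.10 RPM per kb. The gene bodies differed between Col and clf-29 by more than the replicate spread, and upstream the levels of clf-29 and of the double mutant differed from Col by less than it. Both statements hold for RPM only. The other scalings moved clf-29 against Col by -0.49 to 1.00 (log2), and the profiles were not computed under them. Regions were shorter over 54 of the 75 members marked in both Col and clf-29 (72.0%) and longer over 13, while 60.0% of all protein-coding genes marked in both had a shorter region. Over 80 members marked in both Col and brm-1, 16 regions were shorter and 43 longer, beside 1690 shorter (25.3%) and 3623 longer of 6681 among all protein-coding genes. For genes marked in both Col and clf-29, the median ratio of clf-29 to Col length was 0.90 over members and 0.909 over all protein-coding genes. MYB23 shortened far more than this median. Its region was 17800 bp and touched 5 protein-coding genes in Col, and was 4600 bp and touched only MYB23 in clf-29. The clf-29 libraries were among the shallowest, and the part of depth in the lengths was not tested.

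**Figure D5:**
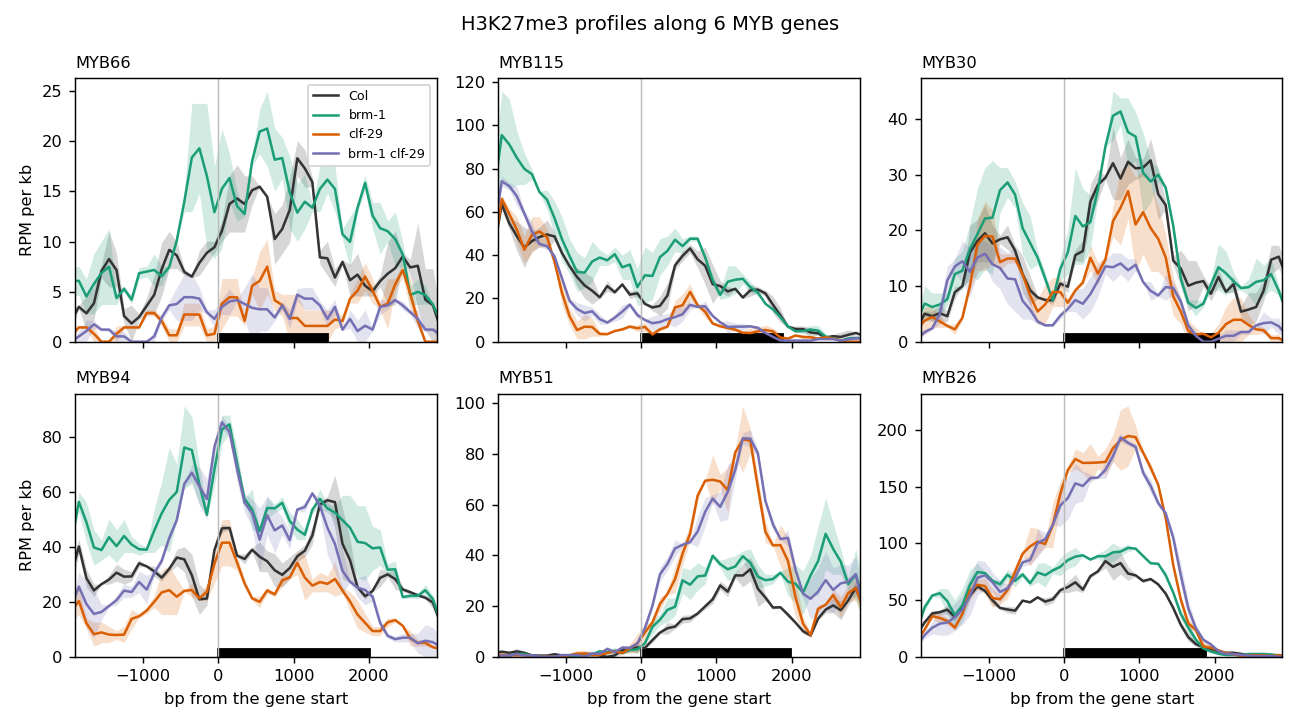
H3K27me3 along 6 MYB genes, in RPM per kb (vertical axis) by distance from the gene start in bp (horizontal axis), in 100 bp bins smoothed over 3 bins, with lines for the mean of 2 replicates, shading for their range and a black bar for the gene. In clf-29 and the double mutant the signal is low over MYB66 and MYB115 but remains upstream of MYB115, and it is raised over the bodies of MYB51 and MYB26. MYB24 lies 3657 bp away from MYB115, outside the panel. At MYB94 the double mutant follows brm-1 and stands above clf-29.

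On the RPM scale, the marked regulators of MYB subgroup 1, a group singled out after its values were seen, lay below Col in clf-29. The changes were -0.77 for MYB30, -0.55 for MYB94, -0.46 for MYB96 and -0.35 for MYB31, and all but MYB31 passed the adjusted p alone. Median-of-ratios factors and scaling to outside genes moved clf-29 against Col by 0.78 and 1.00 (log2). Each shift exceeded the size of these changes. The guard cell gene MYB60 of the same subgroup was marked in no genotype, and its change of -0.81 was smaller in size than the median of all unmarked genes, -0.96. MYB96 and MYB94 activate cuticular wax synthesis, and MYB30 promotes the hypersensitive response and very-long-chain fatty acid synthesis. MYB30 (AT3G28910, chr3:10911132-10913190, plus strand) had 44.9 and 43.7 RPM in Col, 42.8 and 56.0 in brm-1, 31.2 and 20.8 in clf-29 and 15.4 and 18.2 in the double mutant, beside 16.1 RPM in the double mutant input. Col and brm-1 overlapped, clf-29 lay below them and the double mutant lowest, at its input. The step from clf-29 to the double mutant was -0.58 ± 0.20 (limma adjusted p = 0.246) and missed the threshold. The change against Col was -0.77 ± 0.20 in clf-29 (limma adjusted p = 0.00299) and -1.35 ± 0.20 in the double mutant (limma adjusted p = 7.36e-06), and against brm-1 it was -1.49 ± 0.20 (limma adjusted p = 4.09e-06). With median-of-ratios factors and with scaling to outside genes, the double mutant call against Col was lost. Over all alternatives that change shrank to as little as -0.28, with the sign kept. The fall against brm-1 remained called in all 22 alternatives.

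MYB96 (AT5G62470, chr5:25078991-25081141, minus strand) stepped down from Col and brm-1 to clf-29 and then to the double mutant, with 85.4 and 88.1 RPM in Col, 89.6 and 95.4 in brm-1, 60.1 and 65.8 in clf-29 and 46.3 and 42.5 in the double mutant. No clf-29 library overlapped Col, and no double mutant library overlapped clf-29. The change in the double mutant against brm-1 was -1.04 ± 0.12 (limma adjusted p = 9.93e-07) and fell just short of 2-fold in 3 of 22 alternatives, without brm-1 replicate 2, without double mutant replicate 2 and with a pseudocount of 4. Against clf-29 it was -0.49 ± 0.12 (limma adjusted p = 0.0608).

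MYB94 (AT3G47600, chr3:17539289-17541307, minus strand) also lay below Col in clf-29 but differed from MYB30 and MYB96 in the double mutant, where it stood above clf-29. This gene was singled out after its values were seen. It had 73.3 and 86.4 RPM in Col, 109.9 and 113 in brm-1, 57.4 and 50.7 in clf-29 and 99.9 and 104 in the double mutant. Both clf-29 libraries lay below all others, and both double mutant libraries lay above Col. The change was -0.55 ± 0.12 in clf-29 against Col (limma adjusted p = 0.000681) and 0.91 ± 0.12 in the double mutant against clf-29 (limma adjusted p = 9.72e-05). The latter kept its sign in all 22 alternatives and an adjusted p under 0.05 in 21 of them, whereas the former turned positive (0.21 and 0.43) with median-of-ratios factors and with scaling to outside genes. The interaction at MYB94 was 0.43 ± 0.17 (limma adjusted p = 0.0853), which missed the threshold.

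The 250 bases upstream of the annotated starts of these 3 genes and of MYB66 and MYB115 are shown because MYB66 and MYB115 had the largest falls in clf-29, and MYB30, MYB94 and MYB96 are marked wax and fatty acid regulators of 1 subgroup whose levels in the double mutant went different ways. They were read 5′ to 3′ on the gene's strand from the RefSeq TAIR10.1 assembly, at chr3:10910882-10911131 for MYB30, chr3:17541308-17541557 for MYB94, chr5:25081142-25081391 for MYB96, chr5:4764835-4765084 for MYB66 and chr5:16144542-16144791 for MYB115. Capitals mark matches, on either strand, to the telobox AAACCCT or to GAGAGAGA, letters associated with Polycomb recruitment in plants.
MYB30: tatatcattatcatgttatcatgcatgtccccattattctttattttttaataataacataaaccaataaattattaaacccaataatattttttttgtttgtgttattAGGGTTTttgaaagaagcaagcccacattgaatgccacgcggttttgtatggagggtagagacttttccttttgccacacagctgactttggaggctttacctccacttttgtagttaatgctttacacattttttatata
MYB94: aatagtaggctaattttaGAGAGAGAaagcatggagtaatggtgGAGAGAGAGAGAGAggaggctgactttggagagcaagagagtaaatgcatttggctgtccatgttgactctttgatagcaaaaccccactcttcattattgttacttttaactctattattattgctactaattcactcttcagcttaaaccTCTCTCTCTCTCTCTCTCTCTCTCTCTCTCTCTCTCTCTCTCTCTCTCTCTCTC
MYB96: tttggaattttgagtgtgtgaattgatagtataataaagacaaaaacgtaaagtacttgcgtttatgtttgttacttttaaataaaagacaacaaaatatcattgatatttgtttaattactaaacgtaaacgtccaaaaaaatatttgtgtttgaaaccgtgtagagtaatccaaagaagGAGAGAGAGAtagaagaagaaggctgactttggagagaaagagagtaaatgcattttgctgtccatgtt
MYB66: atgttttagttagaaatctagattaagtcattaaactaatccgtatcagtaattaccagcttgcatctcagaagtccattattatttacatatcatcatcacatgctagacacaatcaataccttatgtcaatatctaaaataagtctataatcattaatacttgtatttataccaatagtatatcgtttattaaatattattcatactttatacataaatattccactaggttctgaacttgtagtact
MYB115: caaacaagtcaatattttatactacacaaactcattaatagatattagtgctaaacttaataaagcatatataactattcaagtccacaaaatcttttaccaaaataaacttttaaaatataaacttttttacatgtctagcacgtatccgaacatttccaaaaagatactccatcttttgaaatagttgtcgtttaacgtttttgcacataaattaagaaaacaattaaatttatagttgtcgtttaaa

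MYB30 holds 1 telobox, MYB96 holds 2 overlapping GAGAGAGA matches in 1 run, MYB94 holds 29 overlapping matches in several runs, and MYB66 and MYB115 hold neither motif. Their GC contents were 31.2%, 30.0%, 40.8%, 26.0% and 24.4%, against a median of 31.2% over 27443 protein-coding genes. Of all 116 MYB genes, 6 (5.17%) held the telobox in this window and 10 (8.62%) held GAGAGAGA, against 7.33% and 4.91% of all protein-coding genes. Among the 82 members marked in Col the shares were 4.88% and 7.32%, beside 5.88% and 11.8% of the 34 members not marked in Col and 8.95% and 5.07% of all protein-coding genes marked in Col. A match is a run of letters and not a bound site.

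In the double mutant against Col, 8 of the 86 marked members were called higher and 4 lower, where 14.6% and 9.64% of all marked genes were called. All 3 comparisons with Col share the same 2 Col libraries. The higher calls were MYB51 (1.43), MYB11 (1.23), MYB26 (1.19), MYB41, MYB46, MYB69, MYB119 and MYB56, and the lower calls were MYB66, MYB115, MYB30 and MYB89 (-1.01, turned to 0.040 by scaling to outside genes). MYB11 had 81.5 and 64.6 RPM in Col, 165 and 177 RPM in clf-29 and 178 and 164 RPM in the double mutant, and clf-29 and the double mutant overlapped fully. The 8 higher calls became 1, 0 and 51 under the trimmed mean over genes marked in Col, the trimmed mean over genes marked in all genotypes and median-of-ratios factors, and the 4 lower calls became 8, 10 and 0. Among the unmarked members, 10 of 25 were called lower, against 54.9% of unmarked genes.

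Loss of CLF in plants already lacking BRM lowered 5 marked members and raised none past the limits. The lower calls against brm-1 were MYB66, MYB115, MYB30, MYB121 (-1.18) and MYB96 (background 10.6%). MYB121 had 37.8 and 39.4 RPM in brm-1 and 15.4 and 17.6 RPM in the double mutant, at its input of 16.8 RPM, and its call stood in all 22 alternatives. Limma and limma-voom each called 0 higher (background 2.91%), where 30 members were higher at an unadjusted p under 0.05. MYB51 was among these, at 0.87 ± 0.12 (limma adjusted p = 8.93e-06). The other scalings moved the log2 scale in this comparison by -0.23 to -0.03.

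Between the double mutant and clf-29, limma and limma-voom called 0 members higher and 0 lower (backgrounds 0.764% and 0.155%), and 3 were higher and 16 lower at an unadjusted p under 0.05. By adjusted p alone, MYB94 and MYB112, a stress-responsive regulator, were higher and MYB64 was lower. MYB112 had 39.3 and 63.4 RPM in clf-29 and 94.2 and 79.8 RPM in the double mutant (0.78 ± 0.17, limma adjusted p = 0.0215), and its clf-29 replicates stood far apart. MYB64 had 132 and 145 RPM in clf-29 and 98.6 and 102 RPM in the double mutant, without overlap (-0.46 ± 0.11, limma adjusted p = 0.0477). Absence of further calls does not show that the other members were equal in both genotypes.

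The BRM by CLF interaction asks whether loss of both genes changed the log2 level by other than the sum of the separate changes. It was called, on adjusted p alone, at 18 of the 86 marked members, all negative, and at 0 with a positive sign (limma; limma-voom 25 and 0; 38 and 2 at an unadjusted p under 0.05). Among all marked genes, 8.03% had a negative and 0.464% a positive call. The estimates ran from -0.77 at MYB64 to -0.40 at MYB5, and 72 of 86 members lay below 0, where the median of all marked genes was -0.22. A negative value was thus common among marked genes on this scale. The 18 calls fell to 0 when Col replicate 1, Col replicate 2, brm-1 replicate 2 or either double mutant replicate was left out, to 8 without clf-29 replicate 2, to 3 and 2 under the trimmed means, and rose to 71 with median-of-ratios factors.

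Of 14 genes that work with MYB proteins in epidermal and pigment complexes, 5 were marked in Col, where the share of all protein-coding genes was 25.4%. The bHLH partners GL3 and TT8, the target GL2 and ATMYC1 were marked in all 4 genotypes. TT8 had mean levels of 142 RPM in Col and 223 RPM in clf-29, and GL2, which acts downstream of MYB66 in root epidermis, had 133 and 213 RPM. The WD40 partner TTG1 and the single-repeat repressors CPC and TRY, which counteract MYB66, were unmarked, while their relatives ETC1 and ETC2 were marked in 2 and 3 genotypes at 1.12 and 0.942 times the input in Col. Of the 13 that were tested, 0 were called higher in clf-29 or in the double mutant against Col, and 1 was called lower in each, beside 4.63% higher and 33.5% lower among all genes tested in clf-29, and 4.92% and 40.3% in the double mutant.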

How the data were processed

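The authors deposited lists of mapped 51 bp reads from ChIP and input libraries of 4 genotypes, with no score or count per gene, and per the labels aligned to TAIR10 with Bowtie 0.12.7 and called regions with SICER 1.1. Here 1 read was kept per position and strand, 5′ ends were moved 75 bp inwards, and reads were counted over RefSeq TAIR10.1 genes, whose nuclear coordinates are those of TAIR10. Genes under 1000 bp were widened to that length. Removal of repeats took 31.2% to 53.3% of the reads. Replicates of a genotype shared 14.3% to 20.0% of kept positions and libraries of different genotypes 12.7% to 20.2%, so no library was a copy, although the Col replicates differed little beyond sampling noise (chi-square per degree of freedom 1.02, against 1.29 to 1.87 elsewhere).

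Regions were built from 200 bp windows (Poisson p under 0.2), joined where gaps did not exceed 600 bp, and kept where a binomial test against the input of the genotype gave an adjusted p under 0.01. The stretches called in both replicates were used. Genes reaching 10 reads in 2 or more ChIP libraries were fitted with limma 3.58.1 (R 4.3.3, trend) on log2(RPM + 1), since the files hold reads and no count table. P-values rest on the spread between the 2 biological replicates of a genotype, pooled over the 4 genotypes and moderated by limma across genes. The spread of the 2 groups compared is thus not measured on its own. Replicate spread differed between genotypes, with a chi-square per degree of freedom of 1.02 in Col and 1.87 in brm-1. On simulated data for brm-1 against Col over 32062 genes, 99% of 3-fold rises and 96% of 3-fold falls were recovered with 5 false calls. The simulated libraries shared the same gene means apart from 200 changed genes, which were drawn from genes with a mean above 10 RPM. Differences in background or scale between genotypes were thus not simulated, and the false calls do not measure them. A separate simulation planted regions of 1 length and strength on an even background, and 200 of 200 were found with 0 false ones. Recovery of changes at lower levels and of weaker or shorter regions was not simulated. Python 3.11.15, numpy 2.4.6, scipy 1.17.1 and pandas 2.3.3 were used.

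Named genes were the 3 largest called rises and falls per comparison with at least 50 reads in each library of the higher genotype, the 5 highest Col levels, MYB53, and the highest and lowest Col ratio of ChIP to input in each role list. MYB14, MYB31, MYB64, MYB94, MYB96, MYB112 and MYB121, and other members given only as a change, were added after their values were seen. The members and lists were chosen with earlier results of these data known. Alternatives covered scaling, read redundancy, background, pseudocount, filter, gene interval, model, replicate block, region settings and leaving out each library. The genotype labels cannot be checked from ChIP reads at BRM or CLF.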

Additional observations from a re-analysis of the deposited data

Results flagged for a closer look

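The change on loss of CLF differed between plants with and without BRM at 4 of the named genes, by the limma test of the BRM by CLF interaction on log2(RPM + 1). The interaction was -0.52 at MYB41 (limma adjusted p = 0.027), -0.51 at MYB105 (limma adjusted p = 0.029), -0.40 at MYB5 (limma adjusted p = 0.0455) and -0.65 at MYB49 (limma adjusted p = 0.0255). At MYB41 the change on loss of CLF was 1.31 with BRM and 0.79 without it, and at MYB49, which had 83.7 and 83.8 RPM in Col, 103 RPM in each brm-1 library, 104 and 105 RPM in clf-29 and 89.7 and 74.7 RPM in the double mutant, it was 0.32 and -0.33. The median interaction of all marked genes was -0.22, and the count of members with a negative call went to 0 when either Col replicate, brm-1 replicate 2 or either double mutant replicate was left out.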

How the results depend on the processing

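Most counts of called members changed with the scaling. In the order of a trimmed mean over genes marked in Col, a trimmed mean over genes marked in all genotypes (chosen after seeing the data), median-of-ratios factors and the total of genes outside regions, the 16 higher members in clf-29 became 2, 0, 52 and 63, the 3 lower ones 8, 9, 0 and 0, the 8 higher members in the double mutant against Col 1, 0, 51 and 69, the 4 lower ones 8, 10, 0 and 0, and the 18 negative interactions 3, 2, 71 and 76. In brm-1 the 0 higher members became 64 with median-of-ratios factors and 77 with outside genes, and the 0 lower ones became 1 under either trimmed mean. The trimmed means gave 2 positive interactions each, and scaling to outside genes gave 1 higher member in the double mutant against clf-29. This scaling also turned the signs of MYB53 in brm-1 (0.12), of MYB94 in clf-29 (0.43, and 0.21 with median-of-ratios factors) and of MYB89 in the double mutant against Col (0.040). A scaling moves nearly every gene by a like amount on the log scale.

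With all reads kept, 13 members were higher in the double mutant than in Col and 1 higher than in brm-1. With background taken off the numbers were 13 for the former and 3 for the negative interactions. Limma-voom called 5 lower in clf-29, and a pseudocount of 0.25 gave 10 negative interactions. The causes were not tested.

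Leaving out 1 library at a time gave 0 to 1 lower members in brm-1 (1 without Col replicate 2 or brm-1 replicate 1), 3 to 5 lower in clf-29 (5 without clf-29 replicate 2), 0 to 1 higher in the double mutant against clf-29 (1 without clf-29 replicate 2), 0 to 1 positive interactions (1 without brm-1 replicate 1) and 0 to 24 negative ones. A lone replicate is assumed to vary like the other genotypes.

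The labels share only a replicate number, and same-numbered libraries deviated together with correlations of 0.01 to 0.25. With the replicate block, 34 negative interactions and 1 positive one were called, and no other count of calls changed. The counts of marked members moved by less than 1.5 times under every region setting run. The inputs are unreplicated, and the shallowest ChIP library, clf-29 replicate 2, held 2112103 kept reads.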
